A study of Mus musculus with 12 samples.

Results

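SREBP-driven sterol and fatty acid synthesis was examined as a set of 33 genes in M2-like mouse macrophages. The members were chosen by gene symbol, with earlier results of these data known. All 33 were found among the 56748 genes of the deposited count matrix and passed the filter on low counts, which 15033 genes passed. They are 7 enzymes of the mevalonate pathway and 12 enzymes that make squalene and carry it to cholesterol. The rest are 5 regulators (Srebf1, Srebf2, Scap, Insig1 and Insig2), the sterol carrier gene Stard4 and 8 enzymes of fatty acid synthesis, elongation and desaturation. Bone marrow-derived macrophages (BMDM) of C57BL/6J mice, grown with M-CSF and polarized with IL4 at 10 ng/mL for 48 hours, were kept for 72 hours under 1 of 4 conditions, with 3 mice per condition. These were untreated control, recombinant IFNβ (rIFNβ) at 1500 pg/mL, supernatant of Dox-treated YUMM5.2 Ifnb1eGFP melanoma cells diluted to 1500 pg/mL IFNβ (Ifnb1eGFP supernatant), and supernatant of Dox-treated YUMM5.2 eGFP cells at the same dilution (eGFP supernatant). YUMM5.2 is a mouse melanoma line, and its derivatives carry a lentiviral vector from which Dox switches on Ifnb1 with eGFP, or eGFP alone. Both supernatants could thus carry tumor cell products and residual Dox, which rIFNβ and the untreated medium lack. The cells were a culture model without tumor contact, and the supernatants came from 1 engineered tumor line.

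Sterol regulatory element-binding proteins are transcription factors held in the endoplasmic reticulum as precursors. When membrane cholesterol is low, the escort protein SCAP carries them to the Golgi, where proteases release the active factor, and when sterols are plentiful the INSIG proteins hold SCAP back. SREBP2, the product of Srebf2, is best known for driving cholesterol synthesis, and SREBP1, the product of Srebf1, for driving fatty acid synthesis, and both factors raise the transcript of Insig1. In macrophages this program sets the supply of cholesterol and unsaturated fatty acids to the membranes.

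Each library held 31526034 to 45348457 counts. Levels are in CPM (gene counts scaled to a normalized library total of 1000000), and comparisons of levels between genes use CPM per kilobase of exon. A gene was called at an adjusted p of at most 0.05 (quasi-likelihood test of edgeR, Benjamini-Hochberg correction across 15033 genes), and fold changes are log2 values with their standard error (SE). All 8 macrophage markers were detected in each condition, with a summed level of 15300 to 16600 CPM in untreated libraries, 19300 to 19800 with eGFP supernatant, 9860 to 10000 with rIFNβ and 10700 to 10900 with Ifnb1eGFP supernatant. Summed markers of T and NK cells stayed at or below 0.0869 CPM, of B cells at or below 0.712 and of melanoma cells at or below 0.81 in every library. Neutrophil markers summed to 4.28 to 5.72 CPM in unexposed and 0.208 to 0.985 CPM in IFNβ-exposed libraries, dendritic cell markers to 1.22 to 1.61 and 0.273 to 0.43 CPM, and fibroblast markers to 27.6 to 77.6 and 47.8 to 75.7 CPM. In unexposed libraries the neutrophil and dendritic cell sums were mostly S100a8 (up to 5.72 CPM) and Zbtb46 (up to 1.61 CPM). With tumoral IFNβ 3 of the 8 macrophage markers were called higher (37.5%, against 30.1% of all genes tested) and 2 lower (25%, against 25%). By sign 6 were higher and 2 lower, and with rIFNβ 5 and 3. Lyz2 had mean levels of 9420 CPM untreated and 3470 CPM with rIFNβ, and Itgam 1450 and 323. Adgre1 had 1560 and 1770 CPM, and Cd68 1240 and 1750. The 10 proliferation genes summed to 876 to 911 CPM in untreated cells, 825 to 850 with eGFP supernatant, 736 to 784 with rIFNβ and 671 to 721 with Ifnb1eGFP supernatant, with 7 of them called lower and 1 higher with tumoral IFNβ (all genes, 25% and 30.1%), and 4 lower and 2 higher with rIFNβ (24.6% and 30.7%). The part of these markers in the results was not tested. In bulk RNA, fewer cells of a type and less RNA per cell cannot be told apart.

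The members were expressed in untreated cells over a wide range of levels. Per kilobase, Scd2 had the highest mean level of the 33 members in untreated control with 48.0 CPM per kilobase, followed by Hmgcs1 with 31.9 and Insig1 with 18.7, and Scd1 had the lowest with 0.837. Srebf2 stood at 16 CPM per kilobase and Srebf1 at 9.65. Scd1 and Scd2 encode desaturases that place a double bond in saturated fatty acyl chains, and their genes are neighbors on chromosome 19 (GRCm39, Scd2 at 44281613 to 44295303 on the plus strand and Scd1 at 44382894 to 44399154 on the minus strand).

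The question of the main comparison was what tumor-derived IFNβ changed in macrophages that otherwise received the same kind of tumor supernatant. Sterol and fatty acid synthesis genes fell broadly. With Ifnb1eGFP against eGFP supernatant, 28 of the 33 members were lower, against 25% of all genes tested, and 1 was higher (Lbr), against 30.1%. The remaining 4 members, Ebp, Srebf1, Scap and Insig2, were not called. Since the members were chosen with earlier results of these data known, these shares are a description and not a test. The median log2 fold change of the members was −1.54, compared with 0.03 over all genes tested. By the thresholds of the study (log2 fold change beyond 2 in size, adjusted p up to 0.01) 13 members were lower (2.62% of all genes) and 0 were higher (2.77%).

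Recombinant IFNβ was compared with untreated control, without tumor supernatant. Here 27 members were lower (24.6% of all genes tested), 1 was higher, again Lbr (30.7%), and Mvk, Ebp, Srebf1, Scap and Insig2 were not called. The median was −1.42, compared with 0.04 over all genes. Past the thresholds of the study, 12 members were lower (2.78% of all genes) and 0 higher (2.99%), and Insig1 was the member past them with tumor supernatant only, at −2.03 against −1.88 with rIFNβ. This is a difference of side at a threshold, and the difference between the 2 effects was itself not called.

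**Figure D1:**
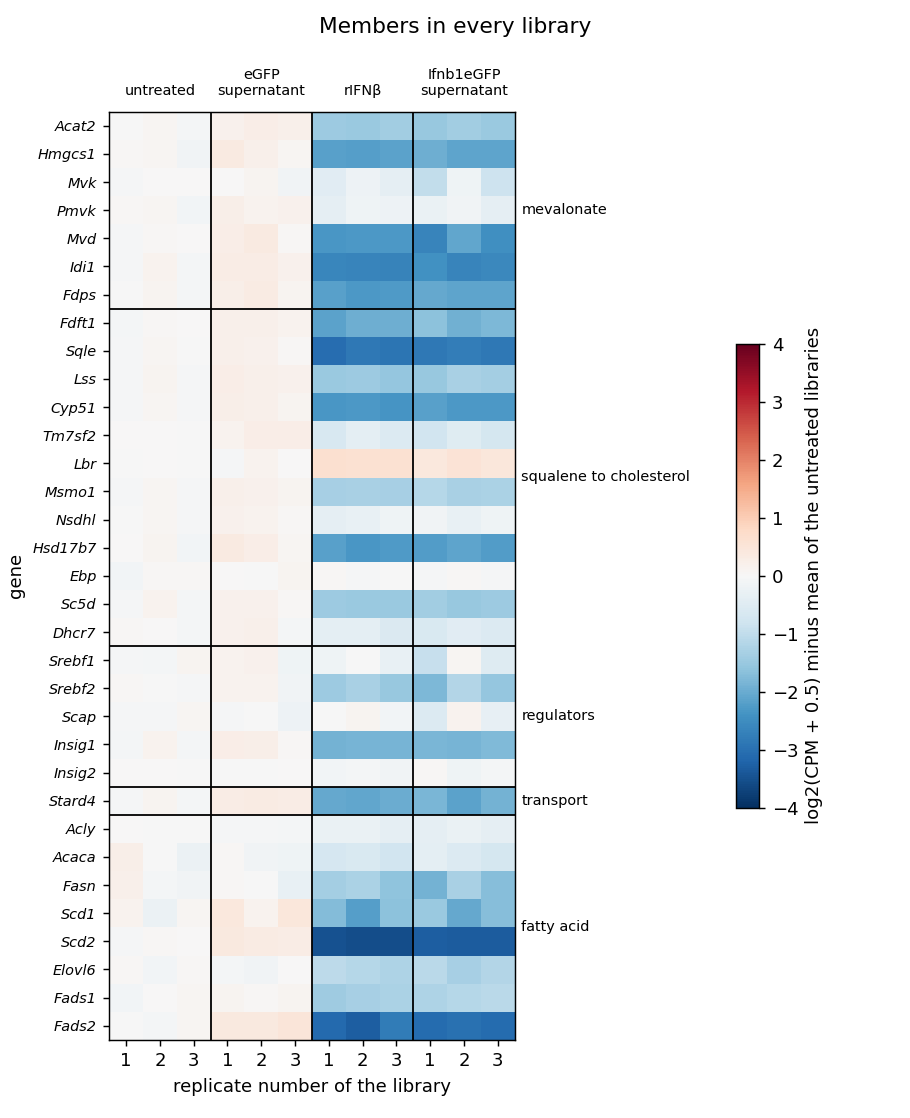
Each row is 1 of the 33 members and each column 1 of the 12 libraries, and the color is log2(CPM + 0.5) minus the mean of the 3 untreated libraries. The 6 IFNβ-exposed libraries on the right are blue (lower) for most members, while Lbr is red and Ebp, Scap and Insig2 stay near white. Srebf1 differs between the 3 Ifnb1eGFP supernatant libraries.

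The mevalonate pathway turns acetyl-CoA into isoprenoid units and joins them into farnesyl diphosphate. All 7 of its measured enzymes fell with Ifnb1eGFP supernatant (against 25% of all genes tested), with a median log2 fold change of −2.28. With rIFNβ 6 of 7 fell (against 24.6%), with a median of −2.19. Idi1, which interconverts the 2 isoprenoid building blocks, fell furthest. Its levels were 65.6, 66.0 and 60.5 CPM with eGFP supernatant against 9.56, 8.19 and 8.64 CPM with Ifnb1eGFP supernatant, and 52.0, 58.9 and 50.9 CPM untreated against 8.46, 8.28 and 7.98 CPM with rIFNβ. The groups were far apart, with a log2 fold change of −2.86 (SE 0.075, adjusted p = 2.6e-10 by edgeR) with tumoral IFNβ and −2.71 (SE 0.076, adjusted p = 3.16e-10) with rIFNβ. Mvd, which makes isopentenyl diphosphate, read 27.9, 29.8 and 23.8 CPM with eGFP and 3.31, 5.19 and 3.84 CPM with Ifnb1eGFP supernatant. Its untreated libraries held 22.5, 24 and 23.4 CPM and its rIFNβ libraries 4.21, 4.39 and 4.35 CPM, so that log2 fold changes were −2.72 and −2.43. Fdps, the farnesyl diphosphate synthase, had 72.6, 76.9 and 66.3 CPM with eGFP supernatant against 14.4, 13.8 and 13.9 CPM with Ifnb1eGFP supernatant, beside 59.7, 65.2 and 58.3 CPM untreated and 13.3, 11.9 and 12.4 CPM with rIFNβ. None of these IFNβ-exposed libraries reached a level seen without IFNβ.

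The members at the entry of the pathway fell as well. Hmgcs1, whose enzyme makes HMG-CoA, lies on chromosome 13 (120151915 to 120170470 in GRCm39). It went from 195 ± 19.5 CPM (SD, n = 3) with eGFP supernatant to 40.3 ± 2.69 CPM with Ifnb1eGFP supernatant. Without supernatant, Hmgcs1 went from 168 ± 13.6 CPM untreated to 36.9 ± 0.517 CPM with rIFNβ. Acat2, the acetyl-CoA acetyltransferase before it, had log2 fold changes of −1.76 and −1.52 in the same order. The kinase genes had the smallest log2 values of the 7. Pmvk had −0.47 (SE 0.082) and −0.26 (SE 0.083), and Mvk had −0.65 (SE 0.181, adjusted p = 0.00959 by edgeR) and −0.36 (SE 0.18, adjusted p = 0.118, not called). The 3 Ifnb1eGFP libraries of Mvk held 4.83, 8.77 and 5.34 CPM, and the value of replicate 2 lay next to the 8.98 to 10.8 CPM of the eGFP libraries.

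Promoter sequence was looked up because these genes moved together. RefSeq promoters (GRCm38.p6, 250 bases before to 50 bases after each start) were given for 26 of the 33 members, and Fads1, Fdft1, Fdps, Scd1, Scd2, Sqle and Stard4 were not in that table. The letters searched, on both strands, were TCACNCCAC, a form of the sterol regulatory element, CCAAT, the core of the NF-Y box, and GGGCGG, an Sp1 box. The 4 stretches below are the 180 bases before the start of Hmgcs1, the member with a TCACNCCAC match, of Acat2 and Sc5d, the next sterol enzymes by size of change whose stretch held at most 30 bases of their own annotated exons, and of Fasn, by the same rule for fatty acid enzymes. The last 3 were picked after their values were seen. Capitals mark the matches on either strand, and sequences run 5′ to 3′ on the strand of the gene.
Hmgcs1 chr13:119690171-119690350 (+): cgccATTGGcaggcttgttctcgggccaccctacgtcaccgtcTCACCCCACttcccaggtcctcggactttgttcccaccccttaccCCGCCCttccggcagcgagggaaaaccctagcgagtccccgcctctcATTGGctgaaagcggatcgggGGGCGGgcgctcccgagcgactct
Acat2 chr17:12960726-12960905 (−): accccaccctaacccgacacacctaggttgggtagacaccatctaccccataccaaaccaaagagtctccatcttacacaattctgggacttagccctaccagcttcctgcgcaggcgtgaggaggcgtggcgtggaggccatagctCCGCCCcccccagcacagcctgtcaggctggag
Sc5d chr9:42264301-42264480 (−): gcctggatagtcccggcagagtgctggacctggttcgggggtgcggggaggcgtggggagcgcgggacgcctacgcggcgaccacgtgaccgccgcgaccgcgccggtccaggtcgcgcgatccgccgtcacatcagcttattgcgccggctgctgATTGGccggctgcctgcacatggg
Fasn chr11:120824548-120824727 (−): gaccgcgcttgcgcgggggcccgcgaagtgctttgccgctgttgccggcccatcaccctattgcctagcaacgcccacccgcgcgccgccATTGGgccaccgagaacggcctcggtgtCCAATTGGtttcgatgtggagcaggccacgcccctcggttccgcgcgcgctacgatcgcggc

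The TCACNCCAC match of Hmgcs1 began 137 bases before the start and was the only one in the promoters of the 26 members. It occurred in 1.2% of the 32851 promoters of the table and in 1.3% of the 10371 tested genes found there. CCAAT was present in 15 of 16 sterol enzymes (93.8%), 2 of 5 fatty acid enzymes (40%) and 4 of 5 regulators, compared with 37.4% of all promoters and 43.1% of the tested genes. GGGCGG was present in 15 of 16 sterol enzymes, 2 of 5 fatty acid enzymes and 5 of 5 regulators, compared with 35.7% of all promoters and 66.8% of the tested genes. A gene with several listed starts counted once if any of them held the letters, and 5 members (Dhcr7, Insig2, Pmvk, Scap and Srebf1) had several. The letters did not separate members that fell from those that did not, since Ebp and Insig2, which were not called, and Lbr, which rose, all held CCAAT, and Acat2, which fell, did not. In the stretch of Fasn 2 of the 3 CCAAT matches overlap on opposite strands.

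Of the 12 enzymes from the making of squalene to cholesterol, 10 fell with tumoral IFNβ (against 25% of all genes tested). The same number fell with rIFNβ (against 24.6%). Lbr rose in both comparisons and Ebp was called in neither. The median log2 fold change was −1.5 with Ifnb1eGFP supernatant and −1.41 with rIFNβ. Sqle, squalene epoxidase and a rate-limiting enzyme of sterol synthesis (chromosome 15, 59186869 to 59203043 in GRCm39), was lowest relative to its starting level. It read 118, 117 and 106 CPM with eGFP supernatant against 13.6, 14.7 and 13.7 CPM with Ifnb1eGFP supernatant, and 98.8, 109 and 101 CPM untreated against 12.1, 13.8 and 13.1 CPM with rIFNβ. This was an 8.12-fold lower level with tumoral IFNβ (log2 fold change −3.02, SE 0.069, adjusted p = 1.33e-10 by edgeR) and a 7.90-fold lower level with rIFNβ (−2.98, SE 0.069, adjusted p = 1.2e-10).

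Hsd17b7, a reductase of the demethylation steps, had 32.7, 31.1 and 26.9 CPM with eGFP supernatant, 5.11, 5.49 and 5.08 CPM in Ifnb1eGFP supernatant, 25.8, 27.5 and 23.8 CPM untreated and 5.25, 4.68 and 4.88 CPM with rIFNβ. Cyp51, the lanosterol demethylase, had 102, 97.8 and 92.3 CPM with eGFP supernatant, 18.5, 16.8 and 16.9 CPM in Ifnb1eGFP supernatant, 83.0, 90.0 and 83.5 CPM untreated and 16.5, 17.1 and 16.1 CPM with rIFNβ. For both genes the IFNβ-exposed libraries formed a narrow band well under the unexposed ones, with log2 fold changes of −2.53 and −2.48 with tumoral IFNβ. Fdft1, which makes squalene, was at −2.03 and −2.10 with tumoral IFNβ and rIFNβ, Lss, which closes the sterol rings, at −1.65 and −1.54, Sc5d, a desaturase, at −1.60 and −1.5, and Msmo1, a methyl sterol oxidase, at −1.41 and −1.32.

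The steps with smaller changes were Tm7sf2 at −0.91 and −0.55, Dhcr7, the last reductase of one branch, at −0.65 and −0.46, and Nsdhl, a dehydrogenase of the demethylation steps, at −0.34 and −0.29, all called. Ebp, a sterol isomerase, held 34.8 ± 1.35 CPM with eGFP and 33.4 ± 1.13 CPM with Ifnb1eGFP supernatant (log2 fold change −0.06, 95% interval −0.18 to 0.06, adjusted p = 0.373 by edgeR). Its interval with rIFNβ ran from −0.13 to 0.11.

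Lbr, the lamin B receptor, is a nuclear envelope protein that can carry out the same sterol reductase step as Tm7sf2. It read 13.4, 15.4 and 13.8 CPM with eGFP supernatant against 18.7, 20.3 and 19.1 CPM with Ifnb1eGFP supernatant, and 13.7, 14.1 and 13.6 CPM untreated against 21.6, 21.2 and 21.2 CPM with rIFNβ. All 6 exposed libraries lay above all 6 unexposed ones. The log2 fold change was 0.45 (SE 0.06, adjusted p = 5.71e-05 by edgeR) with tumoral IFNβ and 0.63 (SE 0.06, adjusted p = 3.75e-06) with rIFNβ. At this step 1 enzyme gene thus rose while the other fell.

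**Figure D2:**
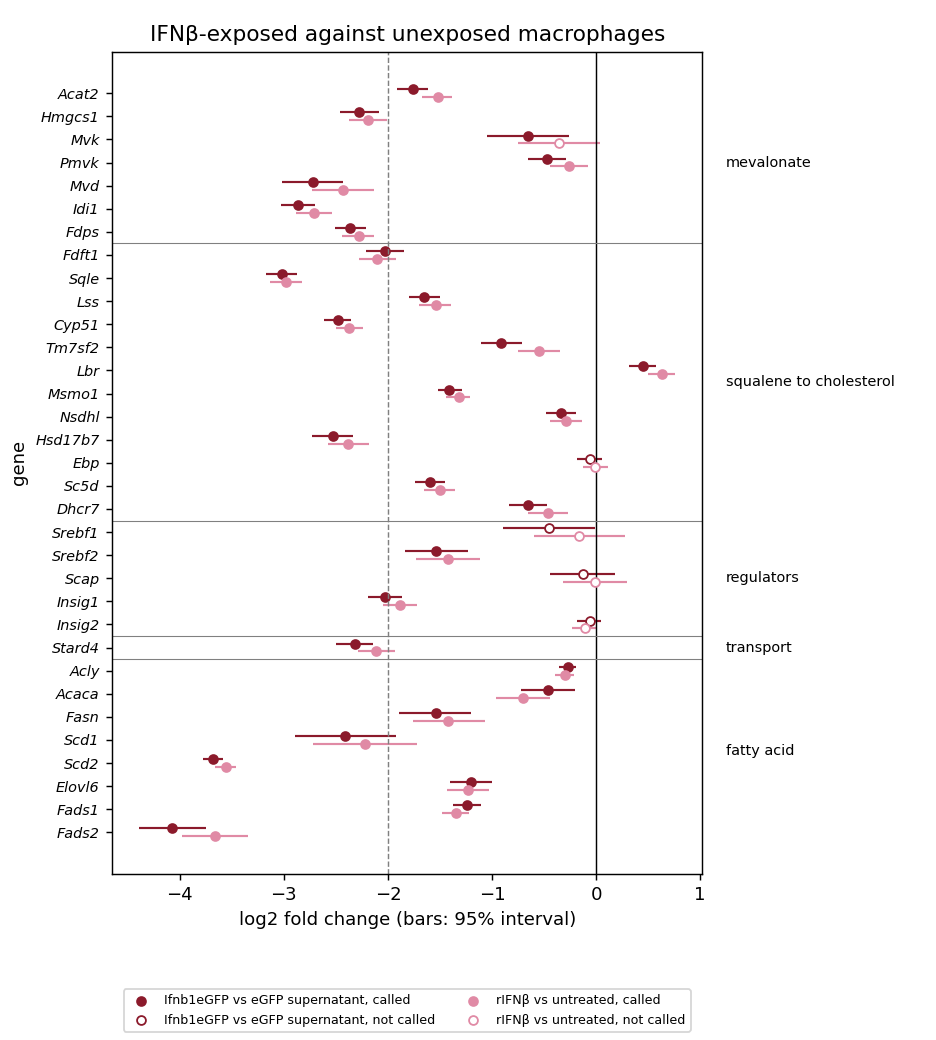
Log2 fold changes of the 33 members (x axis) in pathway order from top to bottom, with tumoral IFNβ (dark red) and rIFNβ (pink). Bars are 95% intervals, filled points were called, and the dashed line marks a log2 fold change of −2. The 2 series run side by side along the pathway, from −4.07 and −3.66 for Fads2 to 0.45 and 0.63 for Lbr.

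Of the 5 regulators, Srebf2 and Insig1 fell in both comparisons (40%, against 25% of all genes with tumoral IFNβ and 24.6% with rIFNβ). The other 3 were not called. Srebf2 (chromosome 15, 82031382 to 82093201 in GRCm39) read 164, 165 and 136 CPM with eGFP supernatant against 42.4, 66.5 and 50.9 CPM with Ifnb1eGFP supernatant, a log2 fold change of −1.54 (SE 0.139, adjusted p = 2.58e-06 by edgeR). Its untreated libraries held 154, 148 and 145 CPM and its rIFNβ libraries 53.8, 60.9 and 52.0 CPM, a log2 fold change of −1.42 (SE 0.139, adjusted p = 4.49e-06). The exposed and unexposed groups did not overlap. Insig1, a target of the factors as well as their inhibitor, read 109, 107 and 94.5 CPM with eGFP supernatant against 25.3, 24.6 and 26.3 CPM with Ifnb1eGFP supernatant. Untreated cells held 86.5, 101 and 85.8 CPM and rIFNβ cells 24.4, 24.9 and 24.8 CPM. Insig2, which encodes the related protein, stayed within 31.1 to 36.2 CPM in all 12 libraries, at 34.7, 34.6 and 36.1 CPM with eGFP supernatant, 36.2, 31.1 and 33.4 CPM in Ifnb1eGFP supernatant, 35.6, 35.7 and 34.8 CPM untreated and 32.4, 33.4 and 32.3 CPM with rIFNβ. Its log2 fold changes were −0.06 (adjusted p = 0.333 by edgeR) and −0.11 (adjusted p = 0.103).

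For Srebf1 the call with tumoral IFNβ depended on the setting. Its libraries read 62.2, 64.6 and 50.2 CPM with eGFP supernatant against 29.6, 60.1 and 39.7 CPM with Ifnb1eGFP supernatant, so that replicate 2 of the latter lay inside the range without IFNβ and the other 2 below it. The log2 fold change was −0.45 (SE 0.201, adjusted p = 0.0772 by edgeR), and −0.76 (adjusted p = 0.000692) without that library. With all libraries kept, Srebf1 was called lower with the replicate block (adjusted p = 0.0443, edgeR), RLE factors (0.0433), all genes left unfiltered (0.0209) and DESeq2 (0.0248), while with the GC trend removed the log2 fold change was −0.18 (adjusted p = 0.111). With rIFNβ the values were 50.6, 56.0 and 46.4 CPM against 55.5, 54.0 and 61.1 CPM untreated, a log2 fold change of −0.16 (95% interval −0.60 to 0.28, adjusted p = 0.541), which passed the threshold when only the compared groups were fitted (−0.19, adjusted p = 0.0448). Scap followed the same libraries, with 60.7, 62.0 and 54.8 CPM with eGFP supernatant, 42.8, 69.5 and 49.5 CPM in Ifnb1eGFP supernatant, 61.2, 61.1 and 66.5 CPM untreated and 62.6, 67.4 and 57.9 CPM with rIFNβ. Its log2 fold change was −0.13 (adjusted p = 0.446 by edgeR) with tumoral IFNβ and −0.36 (adjusted p = 0.00401) without replicate 2, and −0.01 with rIFNβ.

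Replicate 2 of the Ifnb1eGFP supernatant libraries differed from replicate 1 along the GC content of the transcripts. Across the 33 members the log2 difference between these libraries and the GC content of the longest transcript had a Pearson r of 0.785 and a Spearman rho of 0.708, and across 14962 tested genes an r of 0.428 and a rho of 0.579. The genes of these correlations share the same pair of libraries and are not independent replicates. The difference was 1.02 for Srebf1 (58.6% GC), 0.85 for Mvk, 0.70 for Scap, 0.65 for Srebf2, 0.64 for Mvd and 0.62 for Fasn. With the GC trend of each library removed, an alternative chosen after seeing the data, the tumoral IFNβ effect was −0.18 on the log2 scale for Srebf1 (adjusted p = 0.111 by edgeR) and 0.13 for Scap (adjusted p = 0.0476), while Srebf2 stayed lower at −1.24 and Fasn at −1.29.

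**Figure D3:**
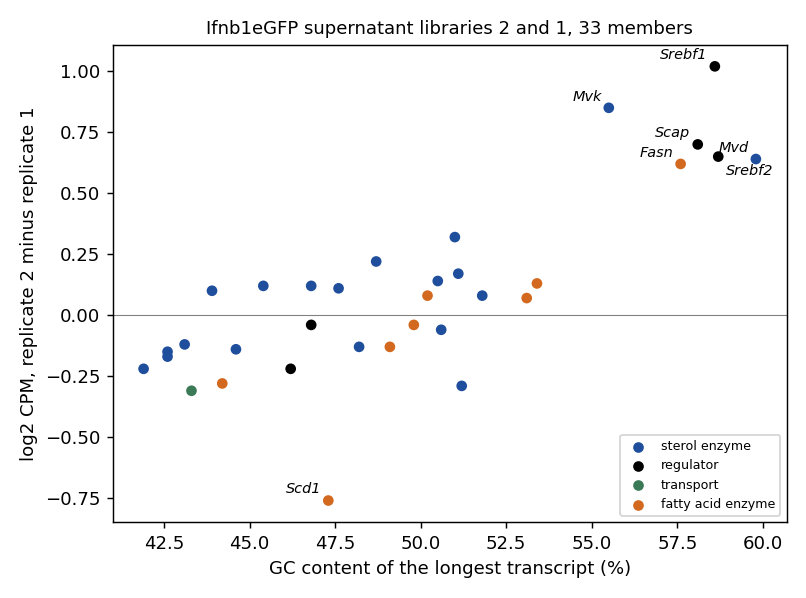
Difference in log2 CPM between replicates 2 and 1 of Ifnb1eGFP supernatant (y axis) against the GC content of the longest transcript in percent (x axis), 1 point per member, colored by role. The 6 members furthest above 0, Srebf1, Mvk, Scap, Srebf2, Mvd and Fasn, all lie at the high end of GC content.

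Stard4 encodes a carrier that moves cholesterol between membranes. Its libraries held 41.7, 42.7 and 41.9 CPM with eGFP supernatant, 9.13, 7.35 and 8.86 CPM in Ifnb1eGFP supernatant, 33.1, 36.8 and 31.9 CPM untreated and 7.89, 7.56 and 8.14 CPM with rIFNβ. The exposed libraries thus lay far below both unexposed groups. It was 4.98-fold lower with tumoral IFNβ (log2 fold change −2.32, SE 0.082, adjusted p = 1.69e-09 by edgeR) and 4.32-fold lower with rIFNβ (−2.11, SE 0.083, adjusted p = 2.92e-09).

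All 8 fatty acid enzymes fell in both comparisons, against 25% of all genes tested with tumoral IFNβ and 24.6% with rIFNβ. The median log2 fold change was −1.39 with tumoral IFNβ and −1.38 with rIFNβ. Values ran from −4.07 to −0.27 with tumoral IFNβ. The 3 largest falls were those of the desaturase genes Fads2, Scd2 and Scd1. Scd2 read 471, 457 and 446 CPM with eGFP supernatant against 36.5, 35.4 and 35.1 CPM with Ifnb1eGFP supernatant, and 350, 370 and 364 CPM untreated against 31.6, 30.2 and 30.1 CPM with rIFNβ. This most abundant member in untreated cells was 12.8-fold lower with tumoral IFNβ (log2 fold change −3.68, SE 0.044, adjusted p = 1.18e-12 by edgeR) and 11.8-fold lower with rIFNβ (−3.56, SE 0.044, adjusted p = 1.69e-12). Scd1 was scarce, with 8.21, 6.73 and 8.48 CPM with eGFP supernatant, 1.85, 1.07 and 1.5 CPM in Ifnb1eGFP supernatant, 6.68, 5.06 and 6.36 CPM untreated and 1.45, 0.90 and 1.57 CPM with rIFNβ, and log2 fold changes of −2.41 (SE 0.221) and −2.22 (SE 0.227). Both genes had counts that were not whole in all 12 libraries, so that some of their reads also matched other features, which were not traced, and the value of the scarce Scd1 is uncertain.

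Fads1 and Fads2 encode the desaturases of polyunsaturated fatty acids and are also neighbors on chromosome 19 (GRCm39, Fads2 at 10038130 to 10079203 on the minus strand, Fads1 at 10160167 to 10174241 on the plus strand). Fads2 had 14.2, 14.2 and 15 CPM with eGFP supernatant against 0.834, 0.919 and 0.825 CPM with Ifnb1eGFP supernatant, which were 33 to 38 counts, and 10.6, 10.1 and 11.4 CPM untreated against 0.801, 0.63 and 1.11 CPM with rIFNβ. It had the largest fall of the 33 members with tumoral IFNβ. With rIFNβ its order with Scd2 turned with the library left out (−3.91 to −3.47 for Fads2, −3.58 to −3.54 for Scd2). The log2 fold changes of Fads2 were −4.07 (SE 0.144, adjusted p = 1.63e-09 by edgeR) and −3.66 (SE 0.146, adjusted p = 3.21e-09). Fads1 was more abundant and fell less, from 104, 102 and 105 CPM with eGFP supernatant to 41.6, 43.8 and 46.1 CPM with Ifnb1eGFP supernatant, and from 90.9, 98.5 and 104 CPM untreated to 36.4, 38.7 and 40.1 CPM with rIFNβ, with log2 fold changes of −1.24 (SE 0.059) and −1.35 (SE 0.059).

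The synthesis enzymes upstream of the desaturases changed in unequal measure. Fasn, the fatty acid synthase, read 108, 105 and 86.6 CPM with eGFP supernatant, 27.9, 42.9 and 32.1 CPM in Ifnb1eGFP supernatant, 121, 101 and 96.6 CPM untreated and 40.6, 43.8 and 34.6 CPM with rIFNβ, and its log2 fold changes were −1.54 (SE 0.157) and −1.42 (SE 0.156). Elovl6, which lengthens the palmitate that Fasn makes, read 10.4, 9.72 and 10.9 CPM with eGFP supernatant, 4.93, 4.05 and 4.54 CPM in Ifnb1eGFP supernatant, 11.3, 10.1 and 11.1 CPM untreated and 4.95, 4.68 and 4.30 CPM with rIFNβ, with log2 fold changes of −1.20 and −1.23. For both genes every exposed library lay below every unexposed one.

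Acaca, acetyl-CoA carboxylase and the committed step of fatty acid synthesis, moved less, at 46.7, 40.9 and 39.8 CPM with eGFP supernatant, 34.2, 31.2 and 27.5 CPM in Ifnb1eGFP supernatant, 53.7, 45.1 and 38.4 CPM untreated and 28.5, 29.6 and 26.4 CPM with rIFNβ, with log2 fold changes of −0.46 (SE 0.118, adjusted p = 0.00656 by edgeR) and −0.70 (SE 0.119, adjusted p = 0.000392). Acly, which makes cytosolic acetyl-CoA for both arms, was the least changed of the 8, at 249, 249 and 240 CPM with eGFP supernatant, 199, 211 and 200 CPM in Ifnb1eGFP supernatant, 259, 254 and 251 CPM untreated and 210, 210 and 201 CPM with rIFNβ. Its fall was small but held in every library, with log2 fold changes of −0.27 (SE 0.04, adjusted p = 0.00012 by edgeR) and −0.30 (SE 0.04, adjusted p = 5.46e-05).

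**Figure D4:**
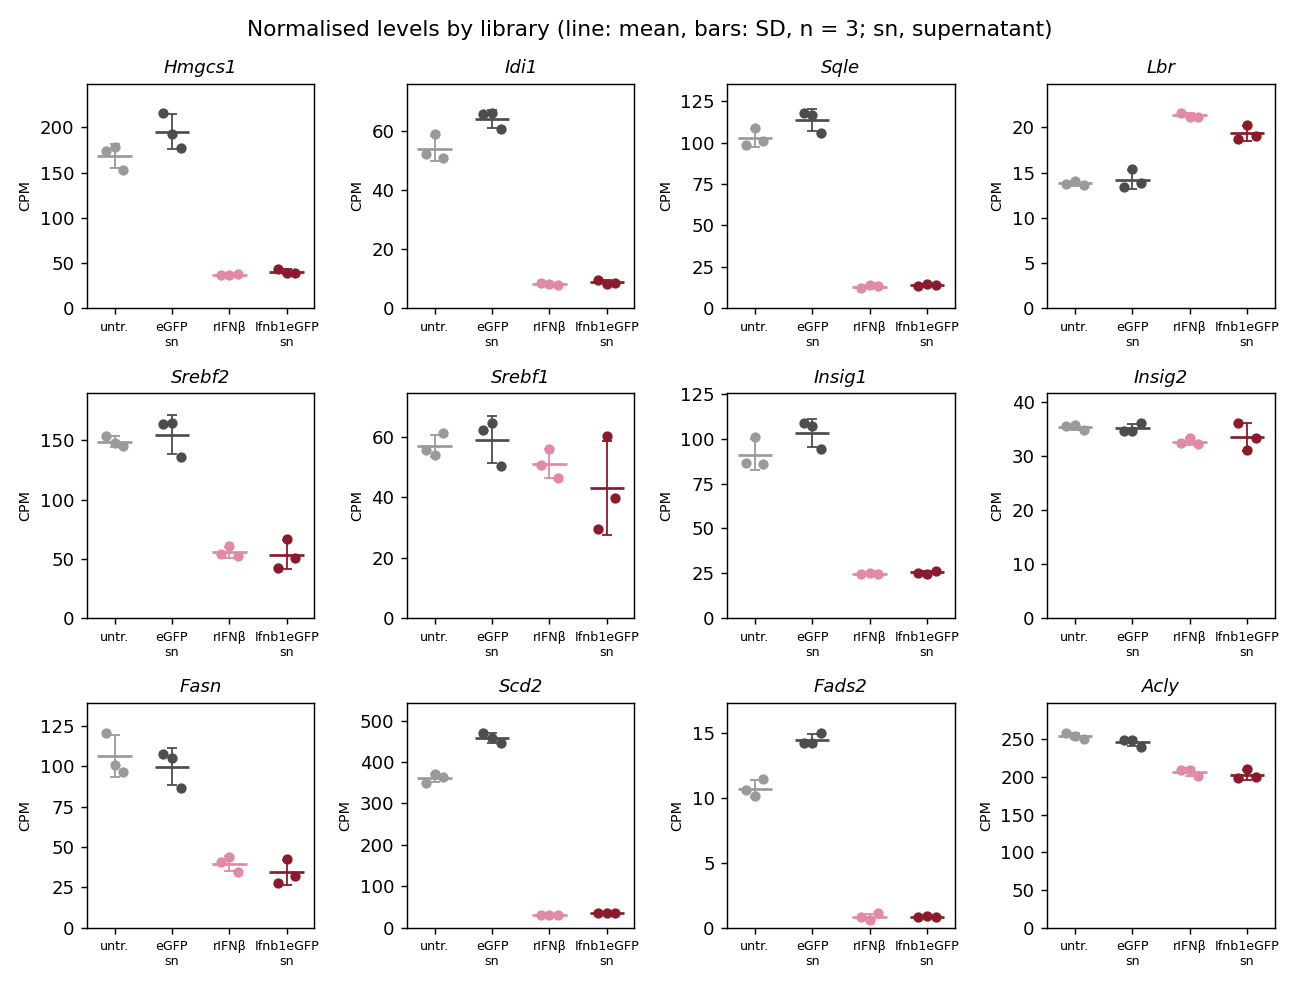
CPM (y axis, from 0) of 12 members in each library by condition, with the mean as a line and the SD of 3 libraries as bars. Hmgcs1, Idi1, Sqle, Srebf2, Insig1, Fasn, Scd2 and Fads2 are low in both IFNβ conditions, Acly is slightly lower, Lbr is higher, Insig2 lies between 31.1 and 36.2 CPM, and Srebf1 is spread from 29.6 to 60.1 CPM with Ifnb1eGFP supernatant.

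The sterol arm and the fatty acid arm were set side by side without a test, since their members were chosen with results known. Of the 19 sterol enzymes 17 fell with tumoral IFNβ (against 25% of all genes tested) and 16 with rIFNβ (against 24.6%). Their median log2 fold changes were −1.65 and −1.52, against −1.39 and −1.38 for the 8 fatty acid enzymes. By the mean over genes in each library the order was the opposite. Relative to untreated cells the sterol enzymes averaged −1.38 to −1.29 on the log2 scale in the Ifnb1eGFP libraries and −1.38 to −1.34 in the rIFNβ libraries, while the fatty acid enzymes averaged −1.64 to −1.59 and −1.71 to −1.64. The order of the arms therefore depended on the summary. Of the factors themselves, Srebf2 was called lower in both comparisons, and the call of Srebf1 with tumoral IFNβ depended on the setting, as with the replicate block (adjusted p = 0.0443 by edgeR). The difference between the 2 genes was not tested.

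**Figure D5:**
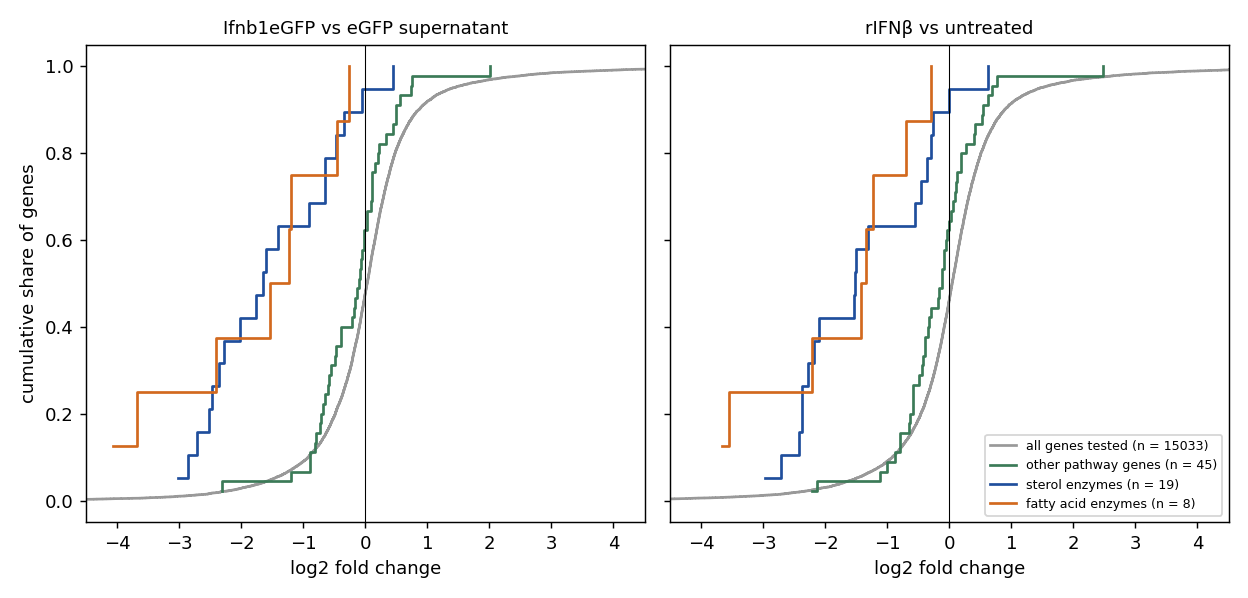
Cumulative share of genes (y axis) up to a given log2 fold change (x axis, trimmed at both ends) with tumoral IFNβ on the left and rIFNβ on the right. The sterol enzymes (blue, 19 genes) and fatty acid enzymes (orange, 8 genes) lie left of all 15033 genes tested (gray), and the 45 other pathway genes (green) lie much nearer to them.

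Other genes of the same pathways were taken from lists as well. Of 14 other isoprenoid and sterol genes 6 rose (42.9%, against 30.1% of all genes tested) and 4 fell (28.6%, against 25%) with tumoral IFNβ, with a median log2 fold change of −0.02. With rIFNβ 6 rose (42.9%, against 30.7%) and 5 fell (35.7%, against 24.6%). The 3 with the smallest adjusted p were Coq2, a prenyltransferase of ubiquinone synthesis, at 0.75 (20.4 ± 1.63 to 34.3 ± 0.562 CPM, SD, n = 3), the sterol-responsive gene Tmem97 at −0.58 and Pggt1b, a subunit of a protein prenyltransferase, at 0.56. Of 9 other genes of the SREBP machinery 4 rose (44.4%, against 30.1% of all genes tested) and 2 fell (22.2%, against 25%) with tumoral IFNβ. With rIFNβ 2 rose (22.2%, against 30.7%) and 2 fell (22.2%, against 24.6%). The 9 genes included Rnf139, a ubiquitin ligase of the endoplasmic reticulum, at 0.73 with tumoral IFNβ (32.7 ± 2.14 to 54.3 ± 4.28 CPM). Mbtps1, the site-1 protease that cleaves SREBP precursors, was at −0.47 (90.7 ± 1.37 to 65.6 ± 3.66 CPM), and Erlin1 at 0.16.

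Of 23 other fatty acid genes listed, 22 were tested, and 15 fell (68.2%, against 25% of all genes) and 3 rose (13.6%, against 30.1%) with tumoral IFNβ, with a median log2 fold change of −0.58. With rIFNβ 14 fell (63.6%, against 24.6%) and 2 rose (9.09%, against 30.7%). Acsl3, which activates fatty acids to acyl-CoA, went from 37.0 ± 1.87 CPM (SD, n = 3) with eGFP to 7.43 ± 0.434 CPM with Ifnb1eGFP supernatant, a log2 fold change of −2.31 (SE 0.071, adjusted p = 7.48e-10 by edgeR). Hsd17b12 and Elovl5, both of fatty acid elongation, had −0.74 and −0.65. Ch25h, whose product 25-hydroxycholesterol blocks SREBP processing, had 2 to 16 counts per library, and at that depth no difference was detectable (log2 fold change 0.71, adjusted p = 0.282 by edgeR with tumoral IFNβ, and 0.94, adjusted p = 0.119, with rIFNβ).

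The next comparison was whether the source of IFNβ mattered. Between Ifnb1eGFP supernatant and rIFNβ 0 of 33 members were called by edgeR (0.14% of all genes were higher and 0.02% lower). An unadjusted p under 0.05 by the same test was found for 5 of the 33 members and for 1288 of the 15033 genes tested. The log2 differences ran from −0.30 (Mvk) to 0.26 (Fdft1), with a median of 0.04. DESeq2 called 1 member, Scd2, which held 35.7 ± 0.707 CPM (SD, n = 3) with supernatant and 30.6 ± 0.807 CPM with rIFNβ, a log2 difference of 0.22 (edgeR, adjusted p = 0.0942). Without replicate 2 of the Ifnb1eGFP libraries 5 members were called by edgeR, with Fdft1 and Scd2 higher and Mvk, Srebf1 and Scap lower in supernatant. Shares of all genes called by DESeq2 or without that library are not given here, so these counts have no background beside them.

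Supernatant without induced IFNβ was compared with untreated medium, using control libraries that also serve the comparisons above. Of the 33 members 1 was called, Scd2, higher by 0.34 on the log2 scale (SE 0.04, adjusted p = 0.00739 by edgeR), against 0.246% of all genes higher and 0.0532% lower. DESeq2 called Scd2, Stard4 and Fads2, and the share of all genes called by DESeq2 is not given here. By sign alone 26 of 33 members were higher with eGFP supernatant, and the sterol enzymes were 18 of 19, with a median log2 fold change of 0.19. Of all 15033 genes tested 7665 were higher by sign, with a median of 0. The members were measured in the same libraries and are not independent replicates. The 3 libraries of a group did not overlap with those of the other for 13 members that were higher (7.96% of all genes) and 1 that was lower, Acly (7.52%). These 13 were 9 sterol enzymes, 3 fatty acid enzymes and Stard4.

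In the interaction of IFNβ and supernatant, which asks whether the IFNβ effect differed between supernatant and plain medium, 0 of 33 members were called by edgeR and 0 by DESeq2, as were 0% of all genes tested by edgeR. The log2 difference of effects ran from −0.41 (Fads2, SE 0.212) to 0.24 (Acaca, SE 0.167), with a median of −0.12. The IFNβ effect with supernatant is measured against the eGFP level, and that with rIFNβ against untreated control.

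Some members share reads with other genes. RSEM divides reads that match several genes, and counts that were not whole in all 12 libraries were found for Acat2, Idi1, Fdft1, Cyp51, Scap, Acaca, Scd1 and Scd2. Fdft1 overlaps Ctsb on the opposite strand, whose mean level was 21555 CPM against 17.6 CPM. Acat2 with Tcp1, Sqle with Washc5, Scap with Ptpn23, Nsdhl with Cetn2, Cyp51 with Akap9, Srebf1 with Rai1 and Acaca with Tada2a also overlap on opposite strands, and the partner's mean CPM was 1544%, 187%, 118%, 116.5%, 74.7%, 49.7% and 12.9% of the member's in that order. Tm7sf2 overlaps Vps51 on its own strand, at 309.5% of its level. Of these overlapping members, Sqle and Nsdhl had counts that were not whole in 0 libraries, Tm7sf2 in 3 and Srebf1 in 10. No division of reads was thus seen for Sqle and Nsdhl. The kit kept strand, but the strand setting of the counting was not given in the sources used here. The values of the other overlapping members are therefore uncertain.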

How the data were processed

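Total RNA of M2-like BMDM (4 conditions, 3 libraries each) was prepared by the authors with TruSeq Stranded Total RNA and aligned with RSEM (v1.3.3). The deposited matrix holds RSEM's expected counts per Ensembl gene, without normalization. The genome was named GRCm39 mm10, which joins 2 builds, and positions here are those of GRCm39 (GENCODE). All 12 columns were assigned by their sample descriptions (0 left over).

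Expected counts were rounded, since 12% of all values, and 32% of the values above 0, were not whole. In R 4.3.3, edgeR 4.0.16 was used with filterByExpr, TMM factors and 1 quasi-likelihood model over all 12 libraries, with Benjamini-Hochberg adjustment. SE was the size of the log2 fold change divided by the square root of F, and 95% intervals used the t quantile at the 11.1 total degrees of freedom of the fit. The script was tested on simulated data. Alternatives were DESeq2 1.42.0, RLE factors, no filter, a replicate block, looser thresholds, only the compared groups, each library left out, and, added after seeing the data, removal of the GC trend. Replicate libraries differed beyond sampling noise (chi-square divided by its degrees of freedom 5.34 to 54.0).

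Members and lists were chosen with earlier results of these data known. All 33 members are named. Values per library are given for the regulators, Stard4, the fatty acid enzymes, the 3 largest changes of each sterol list and members called against their list, and of other pathway lists the 3 called genes with the smallest adjusted p. Promoters are RefSeq's (GRCm38.p6). With 3 libraries against 3 no exact permutation test of a single gene was used.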

Additional observations from a re-analysis of the deposited data

How the results depend on the processing

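With tumoral IFNβ 30 of 33 members, and with rIFNβ 27, kept their call and sign under all 12 alternatives that give a fold change. Not all of the other 3 and 6 members are named below. With tumoral IFNβ the number called was 30 with RLE factors, no filter, DESeq2 and the replicate block, 29 with only the compared groups, 31 with the GC trend removed and 29 to 31 with a library left out. With rIFNβ it was 29, 27, 28, 28, 31, 29 and 27 to 28 in the same order (RLE factors, no filter, DESeq2, replicate block, compared groups, GC trend, library left out). Between Ifnb1eGFP supernatant and rIFNβ, DESeq2 called 1 member, and leaving out a library gave 0 to 5, the 5 without Ifnb1eGFP replicate 2. For eGFP supernatant against untreated control DESeq2 called 3. With thresholds of 1 on the log2 scale and 0.05 for the adjusted p, 21 members were past the thresholds with tumoral IFNβ and 21 with rIFNβ. Signs turned for Scap with the GC trend removed (0.13 with tumoral IFNβ, 0.11 with rIFNβ) and, with rIFNβ, when a library was left out, for Scap (0.03 and 0.05) and Ebp (0.01 to 0.02), in ranges from −0.06 to 0.05 and from −0.06 to 0.02. Srebf1 was called lower with tumoral IFNβ under RLE factors (adjusted p = 0.0433, edgeR), no filter (0.0209), the replicate block (0.0443) and DESeq2 (0.0248). Pmvk lost its call with rIFNβ without the filter (adjusted p = 0.0522, edgeR) and without control replicate 1, control replicate 2 or rIFNβ replicate 1. The causes were not tested, and the shares of all genes called under these alternatives are not given here.

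Libraries with the same replicate number deviated together with a Pearson r of 0.0582 to 0.252 across genes (18 pairs, 13 over 0.1), and in 35 of 36 comparisons a library matched best with its own number, a hint from the data rather than the design. The labels do not say what the number stands for, so the replicate block, with 30 and 28 members called, was kept as an alternative.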
